A study of Homo sapiens with 4 samples.

Results

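The genes described here encode the noradrenergic machinery of sympathetic cells. They are the enzymes TH, DDC and DBH, the cofactor enzyme GCH1, the transporters SLC6A2, SLC18A1 and SLC18A2, the amine-degrading enzyme MAOA and the electron carrier CYB561. They were chosen by name as 9 genes of the 58243 listed in each table. RNA sequencing covered 4 libraries of SH-SY5Y, an established human neuroblastoma line of sympathetic origin. The control group was 2 libraries (a and b) of untreated cells, and the SNP group was 2 libraries (a and b) of cells given sodium nitroprusside, a nitric oxide donor, for 8 h. The labels give no dose for the sequenced cells and call the RNA of the SNP group oxidized. They speak of retinoic acid differentiation where dose tests are described and do not say whether the sequenced cells were differentiated. All libraries come from 1 cell line, and nothing in the labels says whether a and b were separate cultures, so p-values measure the spread between these libraries, which may be technical.

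Catecholamines are made from tyrosine in a chain. TH hydroxylates tyrosine to L-DOPA with tetrahydrobiopterin (BH4) as cofactor, and GCH1 starts the synthesis of that cofactor. DDC turns L-DOPA into dopamine, a vesicular monoamine transporter (SLC18A1 or SLC18A2) loads dopamine into vesicles, and DBH inside the vesicle converts it to noradrenaline with electrons that CYB561 brings across the vesicle membrane from cytosolic ascorbate. SLC6A2 takes released noradrenaline back into the cell, and MAOA on the mitochondrial surface degrades it. TH, DBH and SLC6A2 are used as marks of noradrenergic identity in neuroblastoma.

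Counts summed to between 5613144 and 8056550 per library, so that 3 counts correspond to between 0.372 and 0.534 CPM (counts per 1000000 counts); this floor covers counting error only. The label as sympathetic neuroblastoma was checked with markers. All 10 of the listed sympathetic markers (PHOX2A, HAND2, GATA3, GATA2, ISL1, CHGA, CHGB and STMN2 among them) had enough counts to be tested, and their summed level was 2750 to 2765 CPM without and 2517 to 2580 CPM with SNP. Of the markers of other cells, SOX10 (Schwann cells), PTPRC and CD3E (leukocytes), KRT5 (epithelium) and PITX3 (dopaminergic neurons) had 0 counts in every library. The summed level of the mesenchymal-type neuroblastoma markers was 250.0 to 283 CPM without and 191 to 193 CPM with SNP, most of it VIM. COL3A1, listed as a fibroblast marker, was at 37.3 ± 4.0 CPM without SNP and at 59.7 ± 0.468 CPM with it (SD, n = 2), while COL1A1 had between 1 and 6 counts. In bulk RNA, fewer cells of a type and less RNA per cell cannot be told apart.

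Promoter sequence in the RefSeq table (GRCh38.p14, 250 bases before to 50 after a start site) matched 5 of the 9 genes, with 9 entries; TH, GCH1, SLC6A2 and SLC18A1 had no entry. The DBH and SLC18A2 promoters are printed because these genes had the highest and the lowest level among the 5 with an entry. Both hold the core of the cAMP response element, TGACGT. DBH is shown at chr9:133636113-133636412, plus strand, and SLC18A2 at chr10:117240864-117241163, plus strand, each 5′ to 3′. Capitals mark TGACGT and the homeodomain core ATTA, both searched on either strand.
DBH: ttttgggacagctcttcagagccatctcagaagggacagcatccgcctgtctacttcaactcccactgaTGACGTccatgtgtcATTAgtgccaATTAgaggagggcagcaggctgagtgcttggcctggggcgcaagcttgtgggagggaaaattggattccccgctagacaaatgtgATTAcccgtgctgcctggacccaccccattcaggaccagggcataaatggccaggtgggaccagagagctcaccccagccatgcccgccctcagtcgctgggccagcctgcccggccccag
SLC18A2: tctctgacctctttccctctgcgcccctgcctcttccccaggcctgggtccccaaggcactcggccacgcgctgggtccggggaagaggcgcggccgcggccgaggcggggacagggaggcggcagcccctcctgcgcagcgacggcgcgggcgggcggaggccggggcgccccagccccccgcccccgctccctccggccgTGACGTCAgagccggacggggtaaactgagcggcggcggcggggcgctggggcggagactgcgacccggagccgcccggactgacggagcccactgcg

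In DBH the TGACGT core begins 181 bases before the start site, and ATTA cores begin 166, 156 and 71 bases before it. In SLC18A2 the core is part of the full palindrome TGACGTCA, 48 bases before the start site, and no ATTA was found in the window. The core TGACGT was present in 7.98% of the 35116 promoters of the table, the palindrome TGACGTCA, which contains the core on both strands, in 1.85%, and ATTA in 50.2%. The 4 CYB561 entries, the 2 DDC entries and the MAOA entry held no TGACGT. MAOA held 4 matches to GGGCGG on either strand, the core of GC boxes, which 44.95% of all promoters hold at least once, and SLC18A2 held 5. A match describes the letters of the window and no measured site.

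Cells given SNP had less RNA of the 2 genes that dominate this set and of most of its synthesis and transport genes. Of the 9 genes, 7 had enough counts to be tested, 5 of these were lower in SNP than in control libraries (DBH, SLC18A1, SLC6A2, DDC and GCH1), none was called higher, and MAOA and CYB561 did not pass (edgeR quasi-likelihood test, adjusted p under 0.05). Over all 14759 genes tested, 12.6% were called lower, 13.6% higher and 26.2% in either direction. The median log2 fold change was -0.42 over the 7 genes, against -0.0042 over all genes tested. TH and SLC18A2 could not be tested.

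**Figure D1:**
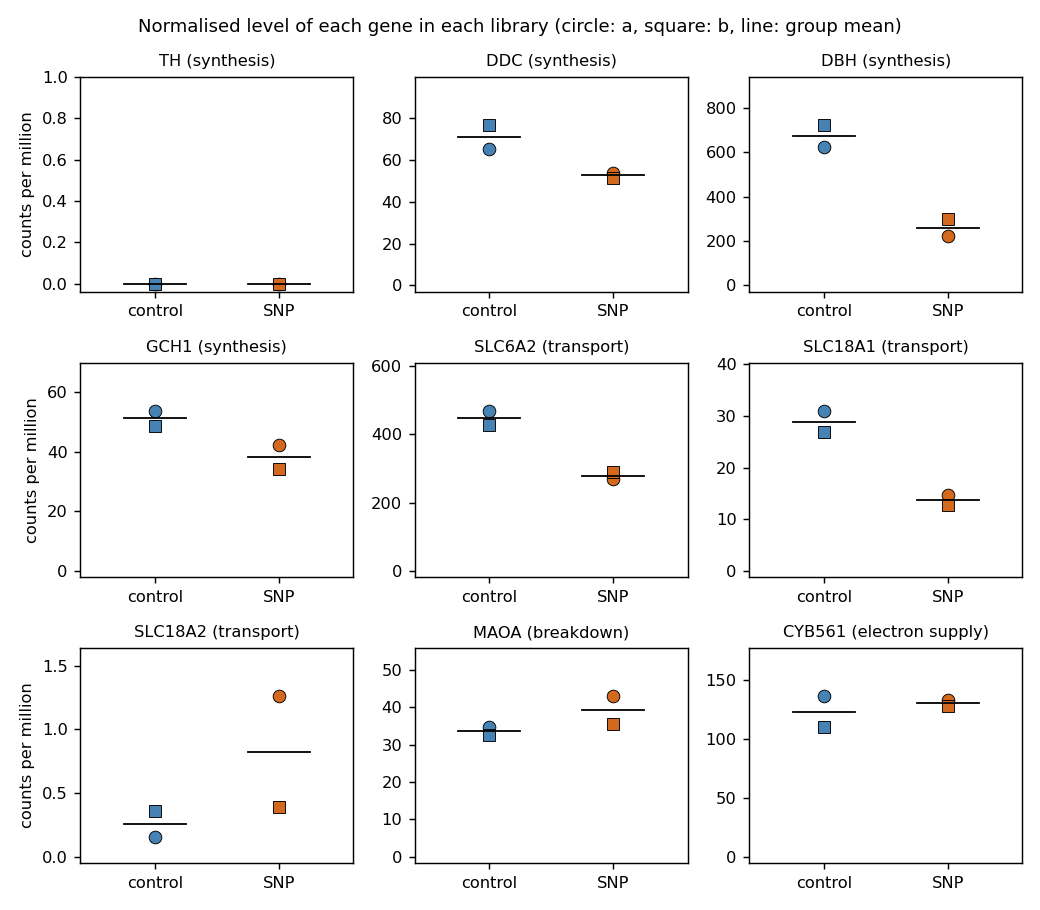
Normalised level in CPM (vertical axes, each from 0) of the 9 genes in the control and SNP libraries; circles are the a libraries, squares the b libraries and lines the group means. The SNP values of DBH, SLC6A2, SLC18A1, DDC and GCH1 lie below both control values, TH is at 0 throughout, and CYB561 overlaps between groups.

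Among the synthesis enzymes, TH (ENSG00000180176; chromosome 11, 2163929 to 2171877, minus strand, GRCh38 positions from GENCODE 29), the rate-limiting step of the chain, was listed at 0 counts in all 4 libraries. None of its 3243 exonic bases overlaps another gene. With 0 of 27856704 counts over the 4 libraries, a share of up to 0.108 CPM is allowed, for counting error only. The mitochondrial ribosomal RNAs MT-RNR1 and MT-RNR2, which every cell uses, were also listed at 0 in these tables. A listed 0 alone therefore does not show that cells lack the RNA. For TH the reason for the 0 was not tested.

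DBH (ENSG00000123454; chromosome 9, 133635348 to 133659344, plus strand) was the most abundant gene of the set. It was counted 4053 and 4064 times in control a and b and 1750 and 2298 times in SNP a and b. Both control libraries were far above both SNP libraries, although the latter were sequenced more deeply. The mean level was 673 ± 68.2 CPM without SNP and 259 ± 54.9 CPM with it (SD, n = 2 here and below). DBH fell by 1.38 on the log2 scale (SE 0.116, 95% interval -1.62 to -1.14), that is by 61.5%, with an adjusted p of 4.8e-08 (edgeR quasi-likelihood, Benjamini-Hochberg). This difference lay at percentile 0.657 of all genes tested, near the lowest. By deposited TPM, a level per transcript length, DBH was the gene of rank 35 in control a and 31 in control b among all genes, and of rank 152 in SNP a and 70 in SNP b. Its exons share 118 of 3776 bases with the antisense gene DBH-AS1, which had between 8 and 18 counts per library.

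DDC (ENSG00000132437; chromosome 7, 50458436 to 50565457, minus strand) was counted 422 and 432 times in control a and b and 429 and 398 times in SNP a and b. After scaling for depth it was 65.1 and 76.7 CPM in the controls and 54.0 and 51.6 CPM with SNP, so that the groups did not overlap. DDC fell by 0.42 on the log2 scale (SE 0.125), with an adjusted p of 0.0160 (edgeR quasi-likelihood, Benjamini-Hochberg). It shares 114 exonic bases with DDC-AS1, which had at most 1 count in a library.

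GCH1 (ENSG00000131979; chromosome 14, 54842008 to 54902852, minus strand), the first enzyme of BH4 synthesis, was counted 348 and 274 times in control a and b and 336 and 263 times in SNP a and b. The levels were 53.7 and 48.6 CPM in the controls and 42.3 and 34.1 CPM with SNP, again without overlap. GCH1 fell by 0.42 on the log2 scale (SE 0.142), with an adjusted p of 0.0313 (edgeR quasi-likelihood, Benjamini-Hochberg). DDC and GCH1 thus fell by about the same amount, and both calls were less stable than that of DBH. With the Wald test of DESeq2 the adjusted p was 0.0570 for DDC and 0.113 for GCH1, so that 3 of the genes were called lower in that test, against 7.74% of all genes tested. Leaving out control b ended the DDC call, with an adjusted p of 0.284 in edgeR. GCH1 was no longer called without control a (0.242), without control b (0.0652) or without SNP b (0.168), all adjusted p from edgeR.

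Of the transporters, SLC6A2 (ENSG00000103546; chromosome 16, 55655604 to 55706192, plus strand), the noradrenaline transporter of the cell surface, was counted 3042 and 2409 times in control a and b and 2128 and 2244 times in SNP a and b. The mean level was 448 ± 29.3 CPM without SNP and 279 ± 16.3 CPM with it, a gap several times the spread within either group. SLC6A2 fell by 0.68 on the log2 scale (SE 0.0944, 95% interval -0.88 to -0.49), with an adjusted p of 2.4e-05 (edgeR quasi-likelihood, Benjamini-Hochberg). It shares 977 exonic bases with AC136621.1 on the same strand, a gene with 0 counts in every library.

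The vesicular carriers differed widely in level. SLC18A1 (ENSG00000036565, on chromosome 8), the form known from chromaffin cells, was counted 201 and 151 times in control a and b and 117 and 98 times in SNP a and b. The mean level was 28.9 ± 2.96 CPM without SNP and 13.7 ± 1.43 CPM with it, with no overlap. SLC18A1 fell by 1.08 on the log2 scale (SE 0.181, 95% interval -1.45 to -0.70), with an adjusted p of 0.000175 (edgeR quasi-likelihood, Benjamini-Hochberg). No exon of another gene overlaps it.

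SLC18A2 (ENSG00000165646; chromosome 10, 117241073 to 117279430, plus strand), the form known from monoamine neurons of the brain, was close to the floor of 3 counts. It was counted 1 and 2 times in control a and b and 10 and 3 times in SNP a and b, so that 1 library, SNP a, held most of its counts. The summed counts, 3 in control and 13 in SNP, give a ratio of SNP over control of 3.35 with an exact 95% counting interval of 0.921 to 18.3. Of its 4145 exonic bases, 2157 overlap PDZD8 on the opposite strand, which had between 697 and 1293 counts, and use of strand in the counting is not given in the sources used here. The origin of these few counts is therefore uncertain.

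MAOA and CYB561 stood apart from the genes that fell. MAOA (ENSG00000189221; chromosome X, 43654907 to 43746824, plus strand) was 34.7 and 32.7 CPM in control a and b and 42.9 and 35.4 CPM in SNP a and b. Both SNP values were above both control values, but the log2 difference of 0.22 did not pass the test (95% interval -0.09 to 0.53, adjusted p = 0.306 in edgeR). CYB561 (ENSG00000008283; chromosome 17, 63432304 to 63446378, minus strand) was 136 and 111 CPM in control a and b and 133 and 128 CPM in SNP a and b. The SNP values of CYB561 lay between the control values, with a log2 difference of 0.08 (95% interval -0.15 to 0.32, adjusted p = 0.637 in edgeR). Its interval leaves out a fall as large as that of DBH, SLC18A1 or SLC6A2. Groups that did not overlap on the CPM scale were found for 5 of the 7 tested genes in the lower and 1 in the higher direction, against 32.3% and 31.7% of all genes tested.

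Within a library, the TPM of DBH was also set against that of each of the other 6 tested genes. In 5 of these 6 ratios both SNP values lay below both control values, and in the ratio to SLC18A1 the groups overlapped. DBH, the gene with the largest fall of the set, is the numerator of all 6. The ratios are therefore not independent and describe that same fall again. No share of such ratios was computed over all genes. The TPM ratio of DBH over DDC was 10.9 and 10.7 in control a and b and 4.63 and 6.55 in SNP a and b. The TPM ratio of DBH over CYB561, its electron donor, was 8.81 and 12.6 in control a and b and 3.18 and 4.46 in SNP a and b. Against the BH4 enzyme GCH1 the ratio was 12.4 and 15.8 in control a and b and 5.56 and 9.33 in SNP a and b. Against MAOA it was 36.0 and 44.2 in control a and b and 10.3 and 16.8 in SNP a and b. DBH over SLC6A2 was 2.63 and 3.33 in control and 1.63 and 2.02 in SNP libraries. DBH over the vesicular carrier SLC18A1 was 28.5 and 38.1 in control a and b and 21.2 and 33.2 in SNP a and b, so that SNP b lay between the control libraries. The ratio of SLC6A2 over SLC18A1 was 10.8 and 11.4 in control a and b and 13.02 and 16.4 in SNP a and b, without overlap. Over these 7 ratios the exact two-sided permutation test gave p = 0.667 (adjusted 0.667) for DBH over SLC18A1 and p = 0.333 (adjusted 0.389) for each of the others, where 0.333 is the smallest value that 2 against 2 libraries can give. DBH made up 57.9% and 63.1% of the summed TPM of the 9 genes in control a and b, and 40.4% and 48.3% in SNP a and b.

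By deposited TPM the order of the levels in control was DBH (1147 ± 132), SLC6A2 (386 ± 20.0), CYB561 (109 ± 14.7), DDC (106 ± 13.8), GCH1 (81.5 ± 4.56), SLC18A1 (34.8 ± 3.09), MAOA (28.7 ± 0.834), SLC18A2 (0.292 ± 0.166) and TH (0). In control CYB561 and DDC overlapped, and no other neighbours in this order did. In SNP libraries the order was DBH (481 ± 117), SLC6A2 (262 ± 23.8), CYB561 (126 ± 0.737), DDC (86.0 ± 0.0360), GCH1 (66.0 ± 7.89), MAOA (36.1 ± 3.74), SLC18A1 (17.9 ± 1.29), SLC18A2 (1.01 ± 0.729) and TH (0), with no overlap between neighbours. The order thus stayed the same but for MAOA and SLC18A1, which exchanged places.

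**Figure D2:**
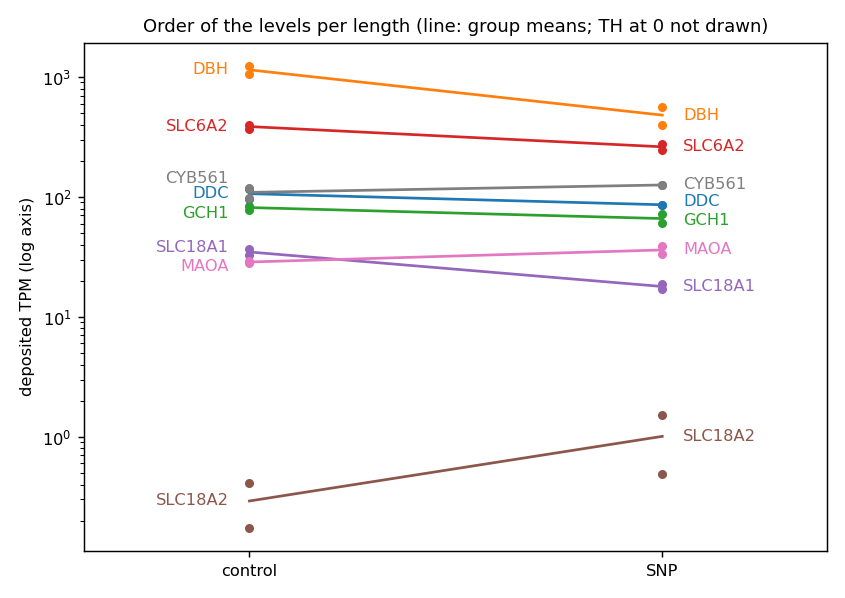
Deposited TPM (vertical axis, log scale) of 8 genes in the control and SNP groups; points are libraries and lines join the group means. DBH falls from 1147 to 481 TPM and stays the highest, and the lines of MAOA and SLC18A1 cross.

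Fold changes over all genes tested varied with the base composition of the annotated transcripts. The log2 ratio of SNP over control across all genes follows the guanine minus cytosine content of the transcripts, here the percentage of G less that of C over the annotated transcripts of a gene. When the genes tested are divided into 10 equal bins by it, the median log2 fold change was -0.43 in the lowest bin and 0.39 in the highest. DBH (29.1% G, 32.0% C), SLC18A1 (24.3% and 26.3%) and SLC6A2 (26.4% and 28.1%), the genes that fell most, contain more cytosine than guanine. They lie at percentiles 9.62, 15.01 and 17.1 of this measure among the genes tested; DBH falls in the lowest bin, and the bin of the other two had a median of -0.27. DDC and GCH1, at percentiles 72.6 and 61.5, fell although the medians of their bins were 0.15 and 0.089.

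With offsets for gene length, GC content and guanine minus cytosine content, all 5 genes were called lower again, while 9.59% of all genes tested were called lower in that fit. The log2 fold change was then -0.99 for DBH, -0.83 for SLC18A1 and -0.44 for SLC6A2, with adjusted p of 4.9e-06, 0.0038 and 0.0010 (edgeR quasi-likelihood, Benjamini-Hochberg). For SLC6A2 this is smaller by over 1.5 times than without offsets. DDC and GCH1 stood at -0.45 and -0.44, close to their values without offsets, so that 3 of the 5 genes that fell had nearly the same fold change in this fit.

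**Figure D3:**
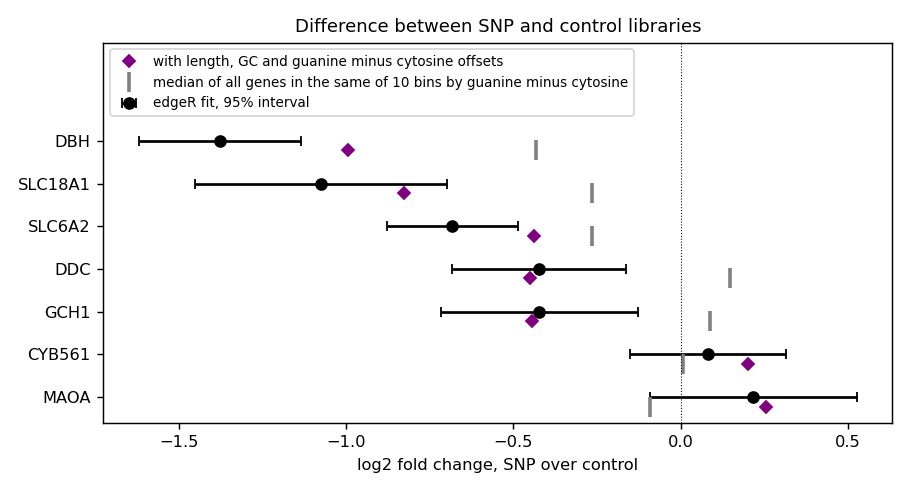
Log2 fold change of SNP over control (horizontal axis) for the 7 genes tested; black points are the edgeR fit with 95% intervals, diamonds the fit with length, GC and guanine minus cytosine offsets, and grey bars the median of all genes in the same of 10 bins by guanine minus cytosine. DBH moves from -1.38 to -0.99 with the offsets. DDC and GCH1 lie below the medians of their bins in the fit without offsets. Bin medians were computed for that fit only.

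Other genes of the pathway came from a list of 67 genes in 8 roles, of which 66 had a row (CYB561D2 is not analysed here) and 44 had enough counts for a test. The number called was 10, of which 3 were higher and 7 lower, and the median log2 fold change was -0.064. These 10 of 44 are close to the 26.2% of all genes tested. None of the 10 was called with the guanine minus cytosine offsets, where 3 other genes of the list were called, ALDH9A1 (-0.42) and ATP6V1B2 (-0.46) lower and DRD4 (1.53) higher.

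In BH4 supply, PTS, the enzyme after GCH1, rose from 14.4 ± 0.965 to 21.6 ± 5.06 CPM (log2 fold change 0.59, adjusted p = 0.0356, edgeR). SPR, PCBD1, PCBD2 and QDPR of this role did not pass. GCHFR, which encodes a feedback regulator of GCH1, had 2 counts in SNP a and 0 in the other libraries. PNMT, which turns noradrenaline into adrenaline in chromaffin cells, had between 6 and 12 counts.

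Of the other carriers, SLC29A4, a low-affinity monoamine transporter of the plasma membrane, fell from 78.9 ± 4.69 to 53.7 ± 0.594 CPM (log2 fold change -0.55, adjusted p = 0.0016, edgeR). SLC18A3, the vesicular acetylcholine transporter, fell from 9.64 ± 2.08 to 5.38 ± 1.2 CPM (log2 fold change -0.85, adjusted p = 0.0341, edgeR). The dopamine transporter SLC6A3 had 1 count in SNP a and 0 elsewhere, and SLC22A2 and SLC22A3 had 0 in every library. SLC6A2 was thus the carrier with by far the most counts among the plasma membrane amine transporters listed.

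Among the breakdown enzymes 1 of 8 passed. SULT1A3, a sulfotransferase for catecholamines, was at 23.6 ± 2.0 CPM without SNP and at 12.4 ± 6.31 CPM with it (log2 fold change -0.93, adjusted p = 0.0075, edgeR). It shares 1811 of 2561 exonic bases with the readthrough gene SLX1A-SULT1A3, so the division of its reads is uncertain. MAOB, ALDH2, ALDH9A1, ALDH3A2, AKR1B1 and AKR1A1 did not pass, with log2 differences between -0.34 for AKR1B1 and 0.47 for MAOB.

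DBH needs copper and ascorbate. SLC23A2, an ascorbate transporter, fell by 0.40 on the log2 scale, from 64.2 ± 6.92 to 48.7 ± 0.295 CPM (adjusted p = 0.0230, edgeR). The copper carriers SLC31A1, ATOX1 and ATP7A did not pass, nor did PAM, a copper enzyme of peptide-containing vesicles that also takes electrons from CYB561; PAM was at 90.7 ± 12.9 CPM without SNP and at 93.4 ± 0.486 CPM with it. The CYB561 paralogs CYB561A3 and CYB561D1 did not pass either.

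The vesicle proton pump supplies the gradient that SLC18A1 and SLC18A2 use. Of its 16 genes, all tested, 2 were higher (ATP6V1G1 by 0.73 and ATP6AP2 by 0.57 on the log2 scale) and 2 lower (ATP6V0B at -0.74 and ATP6V0A1 at -0.42), with adjusted p of 0.0027, 0.0097, 0.0142 and 0.0114 in edgeR. The median of the 16 was -0.036.

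Of 14 catecholamine receptor genes, 6 had 0 counts in every library and 4 were tested. The dopamine receptor DRD2 fell from 15.8 ± 0.519 to 9.46 ± 0.740 CPM (log2 fold change -0.74, adjusted p = 0.0151, edgeR); with the guanine minus cytosine offsets it was at -0.15. ADRA2A, ADRA2C and DRD4 did not pass.

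**Figure D4:**
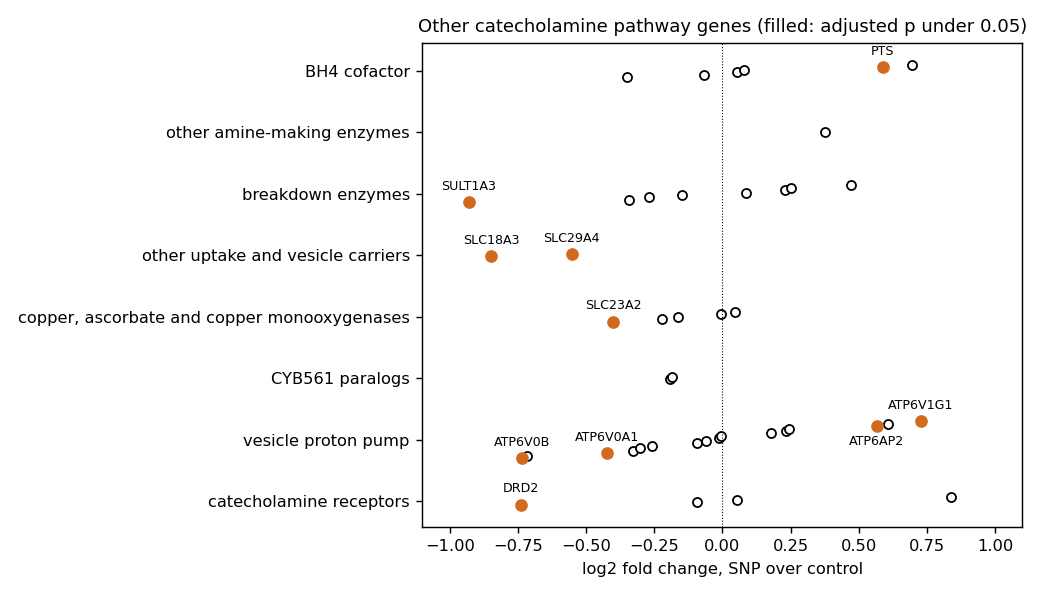
Log2 fold change of SNP over control (horizontal axis) for the 44 tested genes of the wider pathway list, 1 point per gene, by role (vertical axis; offsets within a role are for legibility). Filled points passed the test: 7 lie below 0 and 3 above, in 6 of the 8 roles.

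The noradrenergic regulators did not move as 1 group beside these genes. Of the 8 sympathetic markers named above, 3 were lower, 3 were higher, and ISL1 and STMN2 did not pass. PHOX2A, a homeodomain factor known to act on the DBH promoter, fell from 169 ± 7.86 to 88.6 ± 16.2 CPM (log2 fold change -0.94, adjusted p = 1.0e-05, edgeR). GATA3 and GATA2 were lower at -0.45 and -0.39. HAND2 was higher at 0.41, and the chromogranins CHGA and CHGB, which are packed into the same vesicles as DBH, were higher at 0.91 and 0.97. With the guanine minus cytosine offsets PHOX2A was at -0.28 (adjusted p = 0.0237, edgeR), and GATA3 and GATA2 were no longer called, their log2 differences turning to 0.14 and 0.099. HAND2, CHGA and CHGB were still called higher, at 0.58, 0.86 and 0.71. The part of these markers in the fall of DBH was not tested.

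The genes whose pattern over the 4 libraries was nearest to that of DBH were found by Euclidean distance between centred log2 CPM values, over the 12125 other genes whose mean reached 5 CPM. They were DISP3 (distance 0.115), IER5L (0.195) and GPRIN3 (0.216), with log2 fold changes of -1.30, -1.29 and -1.27. In each of them, as in DBH, SNP a was the lowest library. This likeness rests on 4 libraries and is a description.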

How the data were processed

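Per the file headers and the values, the deposited tables give, for each gene, a whole-number count (not normalized), a TPM value (summing to 1000000 per library) and an RPKM value. The build is GRCh38 per the submitters' processing notes; aligner, counter and annotation are not given in the sources used here. Of 58243 identifiers, 57980 were found in GENCODE 29, which gave positions, exon overlaps and transcript base composition. The authors' TPM values were used for levels between genes, and their RPKM values for the read totals they imply.

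Counts were tested with edgeR 4.0.16 (R 4.3.3): filterByExpr (minimum count 10, minimum total 15), TMM factors of 0.989 to 1.01, quasi-likelihood test of SNP against control with all 4 libraries and no covariate, Benjamini-Hochberg adjustment over 14759 genes and a threshold of 0.05. CPM uses TMM-scaled totals. Standard errors are the fold change (log2) over the root of F. Offsets were per-library lowess curves (span 0.5). Alternatives used DESeq2 1.42.0 and limma 3.58.1 (voom).

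On simulated counts, 81.4% of 199 tested genes with a true log2 change of 1 were called among 14713 genes, 4.14% of the calls were false, and 0 were called with no change. A simulated composition trend gave 1500 calls without and 9 with offsets.

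The genes and lists were chosen with earlier results of these data known. Genes named are the 9 genes, called genes of the wider list, genes overlapping the 9, and the 3 nearest to the called gene with the largest change; others are named to show roles, low counts or markers. Adjusted p-values are of edgeR's test unless stated. Differences between a and b correlated at 0.0433 between control and SNP across 12582 genes with at least 4 CPM, so the letters were not taken as pairs. Some genes of the lists are not reported here.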

Additional observations from a re-analysis of the deposited data

How the results depend on the processing

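With 2 libraries per group and 15 alternatives, DBH, SLC18A1 and SLC6A2 were called lower in each alternative, at log2 fold changes of -1.61 to -0.99, -1.19 to -0.83 and -0.75 to -0.44. DDC and GCH1 kept their direction (-0.54 to -0.30 and -0.59 to -0.27) and were called in 12 and 10 of the 15. MAOA and CYB561 were called in none. The 5 genes called became 3 with DESeq2's Wald test, 3 with the read totals implied by RPKM (an alternative chosen after seeing the data) and 3 to 5 when 1 library was left out; DBH, SLC18A1 and SLC6A2 were the 3. CYB561 turned to -0.060 without control b, one end of a range of -0.060 to 0.24 over the left-out libraries. The 10 wider pathway genes called became 5 with DESeq2, 3 with the guanine minus cytosine offsets, none of them among the 10, and 5 to 12 with 1 library left out, where the fewest came without SNP a and 6 each without control a or control b. In fits with 1 library in a group, that library is assumed to vary like the other group. All genes called, 3861, became 2415 with DESeq2 and 2447 to 4144 with 1 library left out, 2482 without control a and 2447 without control b. With the read totals implied by RPKM 63.1% of the calls were higher, against 51.9%, and the median of all genes was 0.064. With the replicate block 4487 genes were called, with 5 of the 9 genes and 11 wider genes among them, and the call of no gene of the 9 changed. The cause of these differences was not tested.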
